A study of Homo sapiens with 6 samples.

Results

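The clustered protocadherins are cadherin-type adhesion proteins whose genes lie side by side on human chromosome 5, in an alpha, a beta and a gamma cluster. Members were the genes of the deposited table whose names begin with PCDHA, PCDHB or PCDHG, without names that hold a hyphen or end in P. The rule took 54 of the 62703 listed genes, 16 in the alpha, 16 in the beta and 22 in the gamma cluster. PCDHA14 is annotated as a transcribed pseudogene, and the other 53 are annotated as protein-coding.

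PANC-1 is an established human cell line from a pancreatic ductal carcinoma. DKK1-SE is a super-enhancer of DKK1, which encodes a secreted inhibitor of Wnt signalling, and the study asked what the loss of its component enhancer e1 does to gene expression. The control group was PANC-1 of genotype WT (DKK1-SE+/+) with the treatment label Control, in 3 biological replicates. The knockout group was PANC-1 of genotype DKK1-SE Knockout (DKK1-SE-/-, homozygous for a CRISPR/Cas9 deletion of e1) with the treatment label Gene Editing, in 3 biological replicates. The study describes a single DKK1-SE-/- subclone, so the knockout libraries sample 1 clone, and an effect of the deletion and a property of that clone cannot be told apart. The labels call the replicates biological, and the methods speak of independent replicates for experiments in general. Separate cultures are not described for the RNA-seq samples, so p-values measure the spread between these samples, which may be technical. Total expected counts were 21822314, 16475810 and 18803154 in WT replicates 1, 2 and 3, and 17359835, 20098086 and 17804764 in DKK1-SE-KO replicates 1, 2 and 3.

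DKK1 itself was measured first as a check of the labels. Its TPM, the authors' measure of transcript abundance scaled by length and library, was 229, 246 and 199 in the WT libraries and 66.8, 79.8 and 82.7 in the DKK1-SE-KO libraries. Each knockout library lay below each WT library, with a log2 fold change of -1.45 (standard error, SE, 0.11), and edgeR's quasi-likelihood test with Benjamini-Hochberg adjustment over all 15179 genes tested gave an adjusted p of 6.16e-06. An exact two-sided permutation test of the TPM values gave p = 0.1, the smallest that 3 samples against 3 allow. The 7 ductal and epithelial markers summed to a TPM of 1902, 1955 and 1995 in WT and 3192, 3129 and 2710 in DKK1-SE-KO, led by KRT8, with none of the 7 under 0.1 TPM in every library. The 10 neuronal markers, examined because these protocadherins are best known from neurons, summed to 175, 177 and 199 in WT and 218, 210 and 200 in DKK1-SE-KO, led by TUBB3, a tubulin that is not limited to neurons. STMN2, ELAVL3, ELAVL4 and DCX were under 0.1 TPM in every library. The epithelial and neuronal sums were higher in each DKK1-SE-KO library than in each WT library, but the markers did not all move that way. By adjusted p in edgeR's quasi-likelihood test with Benjamini-Hochberg adjustment, KRT8, KRT18 and KRT19 were higher in 3 of 3 knockout libraries (log2 fold changes of 0.86, 0.67 and 1.83), EPCAM and SOX9 were lower in 3 of 3 (-0.67 and -0.39), and KRT7 and CDH1 did not pass (0.47 and -0.43). Of the 5 neuronal markers tested, TUBB3 passed as higher (0.62) and SYT1 as lower (-1.38), each in 3 of 3 knockout libraries. Over all genes tested, 39.3% passed by adjusted p, 19.8% as higher and 19.5% as lower. Passing were 5 of the 7 epithelial markers and 2 of the 5 neuronal markers, the latter near that share. Counts scaled to library size did not overlap between the groups for 51.9% of all genes tested. The part of these marker differences in the results on protocadherins was not tested. The 8 fibroblast markers summed to at most 9.21 TPM, led by THY1 over all libraries, with COL1A2 and FAP under 0.1 TPM in every library. Among them COL3A1, LUM and DCN were named after their values were seen. COL3A1, a fibrillar collagen, was at 1.69, 1.54 and 1.5 TPM in WT and 3.62, 3.61 and 4.07 in DKK1-SE-KO. EdgeR called COL3A1 higher (log2 fold change 1.42, SE 0.14), as 4.96% of all genes tested, while limma on log2(TPM + 1) did not. LUM lay the other way, at 0.47, 0.39 and 0.09 TPM in WT and 0, 0.1 and 0 in DKK1-SE-KO. It was below the filter on low counts, but limma on log2(TPM + 0.1) called it besides COL3A1. DCN had counts in WT replicate 3 only, and THY1, the other marker tested, was not called (0.42, SE 0.33). The 7 blood and endothelial markers summed to at most 1.82, led by CD14, with PTPRC, CD3E, HBB, PECAM1 and CDH5 under 0.1 TPM. In bulk RNA such as this, fewer cells that express a gene and less RNA per cell cannot be told apart.

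In the alpha and gamma clusters each protein-coding member has a variable first exon with its own promoter, which is spliced to constant exons shared by the whole cluster, whereas beta members are encoded by single exons. The pseudogene PCDHA14 is annotated with a single exon. In neurons, promoter choice gives each cell its own set of these proteins, which bind like sets on facing membranes and serve self-recognition and self-avoidance of neurites. CTCF and cohesin take part in that choice, DNA methylation silences the promoters that are not used, and the C-type members at the 3' ends of the alpha and gamma clusters are used more evenly across neurons than the rest.

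All 54 members were placed on chromosome 5, plus strand, of hg38 (GENCODE version 44). The alpha cluster spans 140786136 to 141012347, the beta cluster 141051374 to 141249365 and the gamma cluster 141330514 to 141512977. The promoters were examined because promoter choice, as described above for neurons, bears on which members are expressed. RefSeq windows from 250 bases before to 50 bases after a start (GRCh38.p14) were found for 47 members, some with more than 1 window. PCDHA3, PCDHA13, PCDHA14, PCDHB6, PCDHB11, PCDHGA12 and PCDHGC5 had no entry. The letters CGCT, searched on both strands, were in windows of 12 of the 13 matched alpha members, 14 of 14 beta members and 20 of 20 gamma members, and in 70.0% of the 35116 windows of all genes.

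For each cluster the 8-letter word, read on both strands, that occurred in the promoters of most of its members was then taken, with 2 words tied in alpha and in beta, of which 1 is given. In the alpha cluster this was ATGTCGCT, found in 9 members and in 0.234% of the windows of all genes. The beta word GTGGCGCT was found in 13 members and in 1.15% of all windows. For gamma the word was GCCGCTGT, in 11 members and 1.63% of all windows. Each word holds CGCT, so their matches overlap with those of the shorter motif, and none of them was found in a member of another cluster. Since the words were chosen from these same promoters, their counts among members are a description, and a match is not evidence that a factor binds. The words began a median of 52 bases before the start in alpha, 65 in beta and 70 in gamma. The stretches of the called members PCDHB8 and PCDHGB5 are given with those of PCDHB13 and PCDHGB4, which resemble them, and of the abundant members PCDHA12 and PCDHGC3. They are read on the plus strand, with the word in capitals.
PCDHA12: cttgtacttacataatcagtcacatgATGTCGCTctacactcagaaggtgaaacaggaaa
PCDHB8: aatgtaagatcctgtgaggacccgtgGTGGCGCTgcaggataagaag
PCDHB13: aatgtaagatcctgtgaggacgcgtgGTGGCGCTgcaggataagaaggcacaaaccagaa
PCDHGB5: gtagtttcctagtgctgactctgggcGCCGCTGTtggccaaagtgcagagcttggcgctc
PCDHGB4: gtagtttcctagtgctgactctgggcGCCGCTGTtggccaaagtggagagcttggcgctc
PCDHGC3: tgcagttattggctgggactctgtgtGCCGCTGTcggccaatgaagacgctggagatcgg
These lie at chr5:140875230-140875289 (PCDHA12), chr5:141177763-141177809 (PCDHB8), chr5:141213851-141213910 (PCDHB13), chr5:141397851-141397910 (PCDHGB5), chr5:141387605-141387664 (PCDHGB4) and chr5:141475868-141475927 (PCDHGC3). PCDHB8 and PCDHB13 differed at 1 of the 47 bases compared, and PCDHGB5 and PCDHGB4 at 1 of 60.

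The likeness of the members extends to their transcripts, and it limits how reads can be assigned. The shared exons made up a median of 53.1% of an annotated alpha transcript and 45.6% of a gamma transcript, and beta transcripts shared no exon. In words of 50 bases, a median of 42.8% of an alpha transcript, 85.2% of a beta transcript and 50.1% of a gamma transcript occurred in no other clustered protocadherin gene or pseudogene. PCDHA14 had 0 such words, so its counts cannot be told from those of PCDHA10. PCDHB8 had 54.4%, with 27.9% of its words shared with PCDHB13, and PCDHGB5 had 43.7%, with 10.9% shared with PCDHGB4. Of the nonzero expected counts, 77.6% in the alpha, 35.6% in the beta and 93.9% in the gamma cluster were not whole numbers, against 32.3% over all listed genes (tolerance 0.005). Expected counts that are not whole arise where reads are divided between genes, so each member's level below is uncertain to that extent.

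Most members had too few counts in these cells to be tested. The counts of PCDHA1, PCDHA3, PCDHB1 and PCDHB15 were 0 in every library, which allows up to 3 counts per library (counting error only, as for every such floor and interval here). A further 6 members, PCDHA2, PCDHA8, PCDHA9, PCDHB4, PCDHB7 and PCDHB12, stayed at 3 counts or fewer in every library. The filter on low counts passed 16 members, 4 alpha, 2 beta and 10 gamma, and left 38 without a test. Among these 38, 28 exceeded 3 counts in some library, and the highest count was 28.8, for PCDHGA1 in DKK1-SE-KO replicate 3. The number of members over 3 counts was 25, 25 and 30 in the WT libraries and 28, 28 and 28 in the DKK1-SE-KO libraries.

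**Figure D1:**
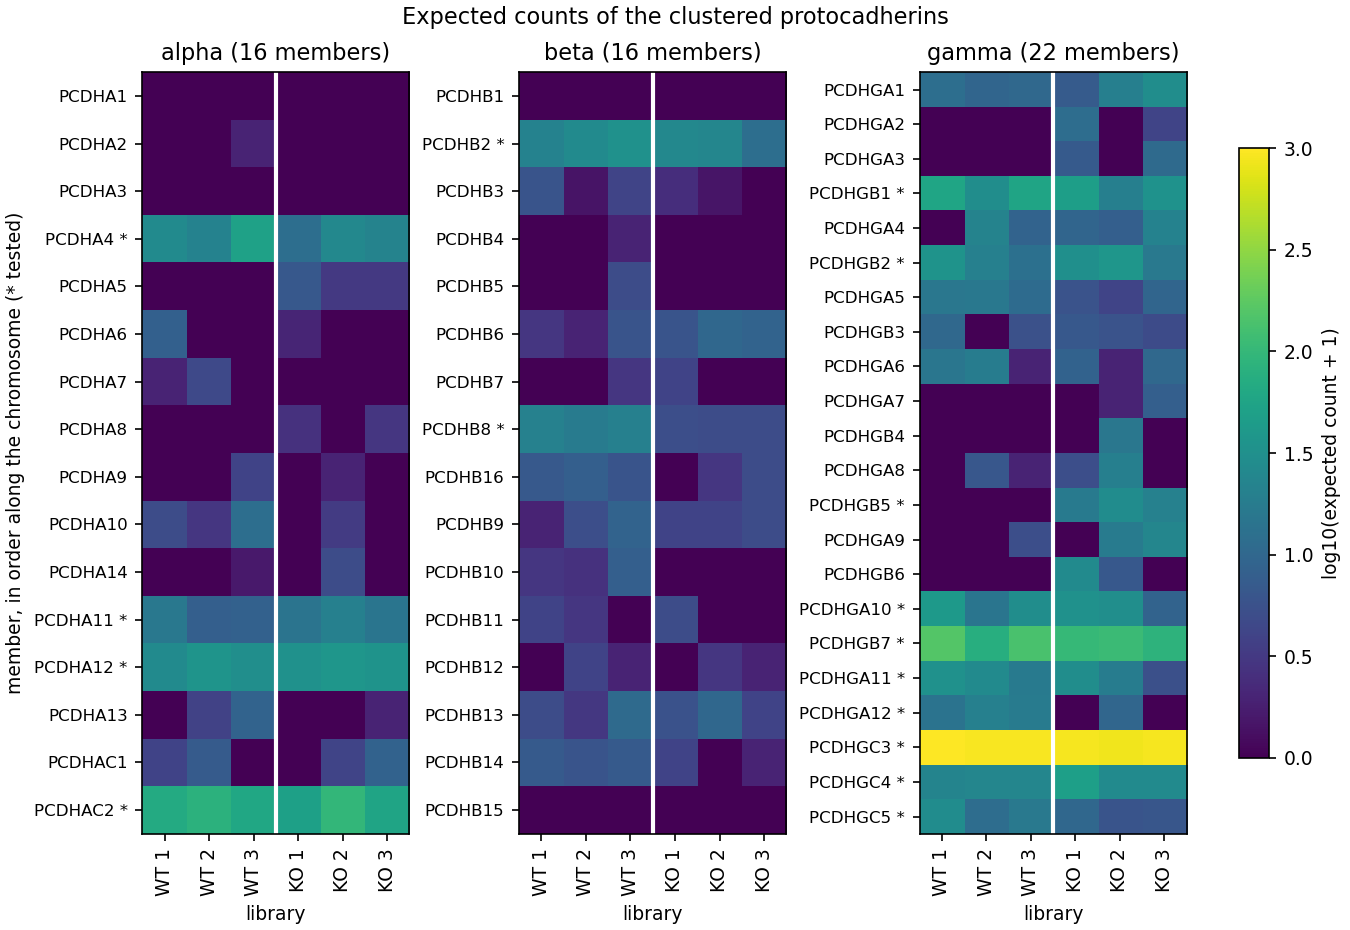
Expected counts of all 54 members in each of the 6 libraries, as log10(expected count + 1), in order along the chromosome within each cluster; asterisks mark the 16 members tested. PCDHGC3 stands above every other member in every library, and 6 gamma members between PCDHGA1 and PCDHGA10 are at 0 (darkest colour) in all WT libraries.

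Taken by cluster, the gamma genes held most of the signal. Their summed TPM was 24.2, 28.7 and 23.2 in WT and 28, 22.7 and 29.7 in DKK1-SE-KO, a mean of 25.4 ± 2.95 against 26.8 ± 3.69 (SD, n = 3). The groups overlapped, and the log2 ratio of the means was 0.08. PCDHGC3, a C-type gamma member, supplied 71.0% to 79.5% of that sum in every library. Without PCDHGC3 the gamma sum was 6.28 ± 0.439 TPM in WT and 7.29 ± 0.753 in DKK1-SE-KO, again with overlapping groups. The ratio of the whole gamma sum was -0.0021 on the log2 scale without DKK1-SE-KO replicate 3 and 0.19 without DKK1-SE-KO replicate 2.

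The alpha sum was 1.82, 3.31 and 2.63 TPM in WT and 2.19, 2.73 and 2.18 in DKK1-SE-KO. These values overlapped, and the log2 ratio of the means was -0.13. Leaving out WT replicate 2, the highest WT library, turned that ratio to 0.089, and leaving out WT replicate 1 gave -0.33. PCDHAC2, the C-type member at the 3' end of the cluster, made up 37% to 67.4% of the alpha sum. Without PCDHAC2 the alpha sum was 1.21 ± 0.321 TPM in WT and 1.28 ± 0.112 in DKK1-SE-KO. The groups overlapped again, and the log2 ratio was 0.08.

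The beta sum was 1.34, 19.6 and 2.55 TPM in WT and 12.8, 12.3 and 1.32 in DKK1-SE-KO. The log2 ratio of the means moved from 0.17 to 2.18 without WT replicate 2 and to -0.33 without WT replicate 1. High values fell in both groups, in WT replicate 2 and in DKK1-SE-KO replicates 1 and 2. They came from PCDHB2, at 0.34 to 9.4 TPM on 11.2 to 31.5 counts, and PCDHB3, at 0 to 8.88 TPM on 0 to 5 counts. The shortest annotated transcript of either gene is 162 bases long, and TPM divides by length, but the part of length in these values was not tested. In CPM, counts scaled to library size with TMM factors, the whole beta cluster summed to 3.09, 4.11 and 5.33 in WT and 3.19, 2.65 and 2 in DKK1-SE-KO. That made a mean of 4.18 ± 1.12 in WT and 2.61 ± 0.597 in DKK1-SE-KO (SD, n = 3), a log2 ratio of -0.68, and the groups overlapped, since WT replicate 1 lay below DKK1-SE-KO replicate 1. Without PCDHB2 and PCDHB3, a choice made after seeing the data, the beta sum was 0.91, 1.32 and 1.69 TPM in WT and 0.7, 0.62 and 0.81 in DKK1-SE-KO. Each knockout library then lay below each WT library, and the log2 ratio was -0.88. That sum still held the called member PCDHB8, at 0.46, 0.53 and 0.52 TPM in WT and 0.12, 0.09 and 0.11 in DKK1-SE-KO. Without PCDHB2 alone, a planned choice, the groups overlapped in TPM and the log2 ratio was 0.08. No sum was tested.

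**Figure D2:**
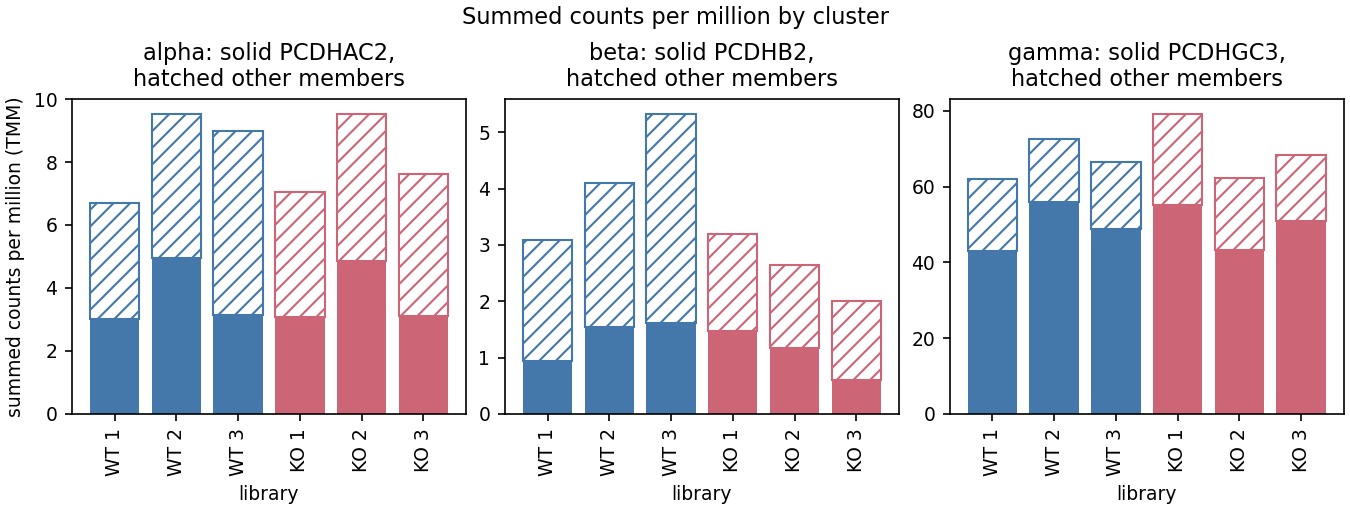
Summed CPM of each cluster in each of the 6 libraries, with the most abundant member solid (PCDHAC2, PCDHB2 and PCDHGC3) and all other members hatched. Alpha and gamma overlap between groups, while 2 of the 3 knockout libraries lie below all WT libraries in beta.

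A gene was called when its unadjusted p was under 0.05 and its log2 fold change was at least 1.2 in either direction. By edgeR's quasi-likelihood test 4 of the 16 tested members were called, beside 1314 of all 15179 genes tested, or 8.66%. PCDHGB5 was called higher in DKK1-SE-KO, as were 4.96% of all genes tested. PCDHB8, PCDHGA12 and PCDHGC5 were called lower, against 3.70% of all genes tested. With Benjamini-Hochberg adjustment in the same test and no limit on the fold change, the same 4 had an adjusted p under 0.05, against 39.3% of all genes tested (19.8% as higher and 19.5% as lower). They were also the 4 with an unadjusted p under 0.05, against 48.3%. DESeq2 called the same 4, while limma on log2(TPM + 1), a scale that shrinks low values, called 0 members and limma on log2(TPM + 0.1) 3 of the 4, without PCDHGC5. Without DKK1-SE-KO replicate 1, 3 members were called higher (PCDHGB5, PCDHGA1 and PCDHGA9), and without WT replicate 3, 2 were (PCDHGB5 and PCDHGA9). Without DKK1-SE-KO replicate 3, PCDHGA5 was called lower (log2 fold change -1.57). The median log2 fold change of the 16 was -0.12, with PCDHGB5 at its lower bound or at its fitted value, beside 0.03 over all genes tested. Each of the 4 called members reached the filter's limit in the 3 libraries of the group in which it was high and in 0 of the other group, PCDHGB5 in DKK1-SE-KO and the others in WT, so no weight is placed on a count over the members that passed. The CPM of 5 of the 16 did not overlap between the groups, against 51.9% of all genes tested. PCDHGB5 and PCDHA11 lay higher in each knockout library (26.2% of all genes tested), and PCDHB8, PCDHGA12 and PCDHGC5 lower (25.7%).

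**Figure D3:**
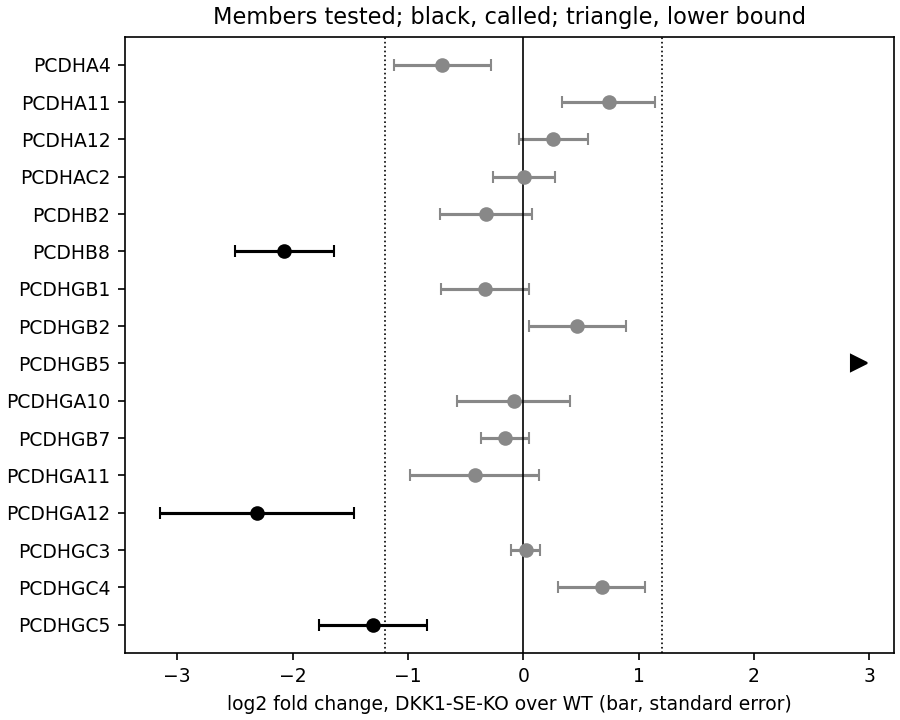
Log2 fold changes of the 16 tested members, DKK1-SE-KO over WT, with standard errors; black marks the 4 called genes, dotted lines the limit of 1.2 in each direction, and the triangle the lower bound for PCDHGB5. The abundant members PCDHGC3, PCDHAC2 and PCDHGB7 lie close to 0.

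PCDHGB5, a gamma member of the B type, had 0 counts in every WT library. Its expected counts in DKK1-SE-KO were 15.8, 27.9 and 19.9. The groups did not overlap, and the knockout mean of 1.17 ± 0.229 CPM (SD, n = 3) was at least 7.52-fold higher than a floor of 3 counts in each WT library. That bound covers counting error only. By edgeR's quasi-likelihood test with Benjamini-Hochberg adjustment the adjusted p was 0.000263, with a higher value in 3 of 3 knockout libraries. At a TPM of 0.24 to 0.36 it remained a minor gamma member, far below PCDHGC3. Over the whole table, 1.01% of the 31217 listed genes with any count had at most 3 counts in each WT library and over 3 in each knockout library. How reads were divided between PCDHGB5 and the members that share its sequence was not tested.

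PCDHB8, a single-exon beta member, had expected counts of 20, 16.9 and 19 in WT and 4.26, 4 and 4 in DKK1-SE-KO. The 3 WT libraries lay close together and well above the 3 knockout libraries, which lay just over the floor of 3 counts. With a log2 fold change of -2.07 (SE 0.43), PCDHB8 was lower in 3 of 3 knockout libraries, and edgeR's quasi-likelihood test with Benjamini-Hochberg adjustment gave an adjusted p of 0.00322. Over the settings that called PCDHB8 the adjusted p ran from 0.00135 in edgeR with a GC-content offset to 0.0529 in limma on log2(TPM + 0.1). PCDHB13, which shares all but 1 base of the promoter stretch and part of the transcript sequence, had 4, 2.06 and 9.96 counts in WT and 4.74, 9 and 2.97 in DKK1-SE-KO, with overlapping groups. How reads were divided between these genes was not tested.

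PCDHGA12, a gamma member of the A type, had 13, 19.4 and 16.5 counts in WT and 0, 8.9 and 0 in DKK1-SE-KO. All WT libraries exceeded all knockout libraries, of which only replicate 2 had any reads. The gene was lower in 3 of 3 knockout libraries, at a log2 fold change of -2.31 (SE 0.84), and the adjusted p from edgeR's quasi-likelihood test with Benjamini-Hochberg adjustment was 0.0485. The call was lost without WT replicate 2 (log2 fold change -2.07), without DKK1-SE-KO replicate 1 (-1.82) or without DKK1-SE-KO replicate 3 (-1.78), and without DKK1-SE-KO replicate 2 the remaining knockout libraries were at 0 counts, so that no fold change is given. Among the settings that called PCDHGA12, its Benjamini-Hochberg adjusted p ran from 0.00371 in edgeR without the filter to 0.162 in limma on log2(TPM + 0.1), and was 0.0545 in edgeR without WT replicate 1 and 0.0895 without WT replicate 3.

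PCDHGC5, the C-type member at the 3' end of the gamma cluster, had 27.4, 10.9 and 15.4 counts in WT and 9.05, 5.01 and 5.4 in DKK1-SE-KO. The groups did not overlap, although WT replicate 2 and DKK1-SE-KO replicate 1 lay close to each other. PCDHGC5 was lower in 3 of 3 knockout libraries, and its log2 fold change of -1.30 (SE 0.47) was just past the limit, with an adjusted p of 0.0473 from edgeR's quasi-likelihood test with Benjamini-Hochberg adjustment. The call was lost without WT replicate 1 (log2 fold change -1.03), DKK1-SE-KO replicate 2 (-1.10) or DKK1-SE-KO replicate 3 (-1.17). Among the settings that called PCDHGC5, its Benjamini-Hochberg adjusted p ran from 0.0187 in edgeR with a GC-content offset to 0.103 in DESeq2, and was 0.073 in edgeR with the replicate block and 0.0861 in edgeR without the filter.

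None of the other C-type members was called. PCDHGC3 had expected counts of 975, 938 and 936 in WT and 897, 850 and 920 in DKK1-SE-KO. On the CPM scale that was 49.3 ± 6.42 and 49.8 ± 5.98 (SD, n = 3), with overlapping groups and a log2 fold change of 0.02 (SE 0.13). PCDHGC4 was at 1.59, 1.4 and 1.33 TPM in WT and 2.74, 2.15 and 2.69 in DKK1-SE-KO, which do not overlap. Its counts, 21.8, 22.8 and 23 against 47.9, 26.4 and 26.2, gave CPM values that did overlap once scaled, since DKK1-SE-KO replicate 2 fell below WT replicate 2. At a log2 fold change of 0.68 (SE 0.38), PCDHGC4 passed neither limit. Without DKK1-SE-KO replicate 1 PCDHGC4 was at 0.22, and without DKK1-SE-KO replicate 2 at 0.89. Its shortest annotated transcript has 581 bases. PCDHAC2 had 67.6, 83.3 and 59.9 counts in WT and 50.1, 95.2 and 56.1 in DKK1-SE-KO, with the highest value of each group in replicate 2 and a log2 fold change of 0.01 (SE 0.27). PCDHAC1 stayed below the filter, at 2.97, 6.24 and 0 counts in WT and 0, 3.07 and 7.68 in DKK1-SE-KO.

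**Figure D4:**
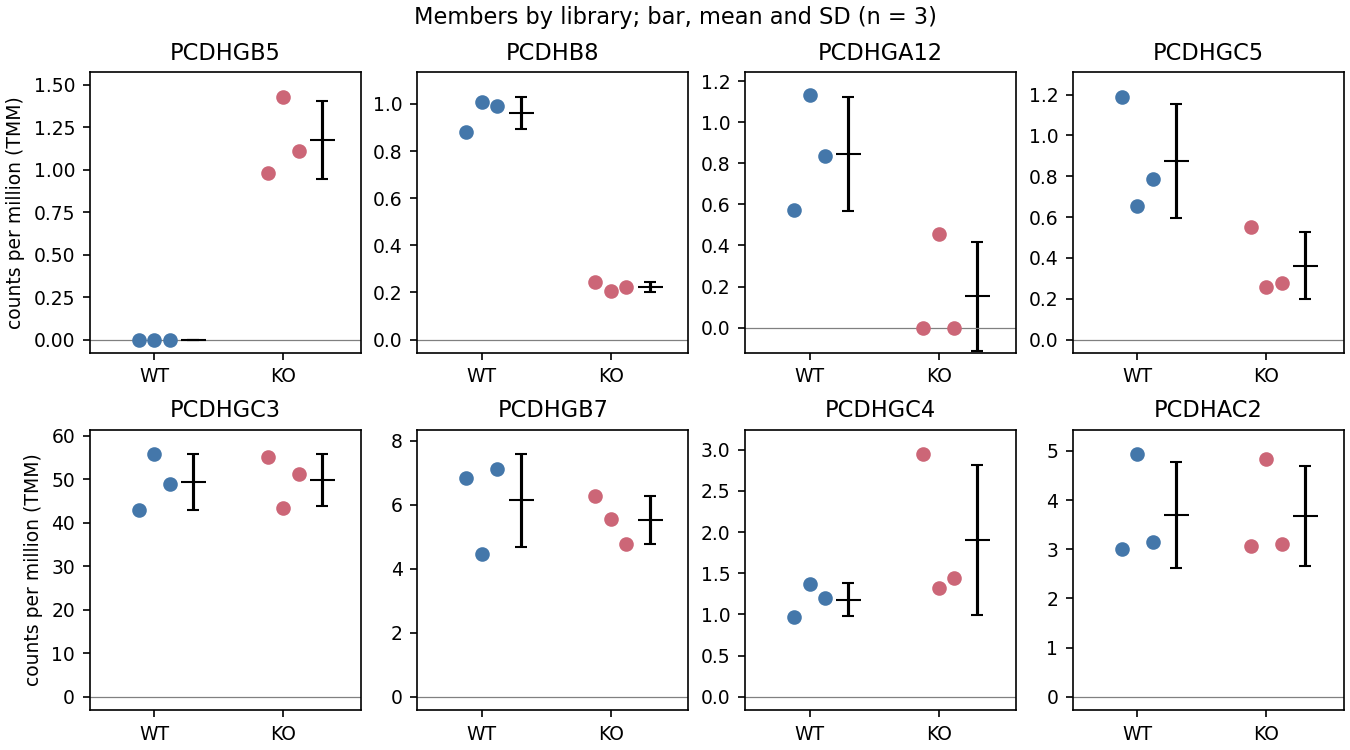
CPM of 8 members in each library, with the mean and SD (n = 3) of each group. The top panels hold the 4 called members, whose groups do not overlap. The bottom panels hold 4 members that are among the 3 of their cluster with the highest mean TPM. Their groups overlap in CPM, although those of PCDHGC4 do not in TPM.

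Among the other abundant members, PCDHGB7 had 155, 74.7 and 136 counts in WT and 102, 109 and 86.2 in DKK1-SE-KO. Its lowest library was a WT library, and the log2 fold change was -0.16 (SE 0.21). With a GC-content offset the log2 fold change was -0.38, and with the replicate block as well -0.35, and PCDHGB7 was called in neither. PCDHA12 had 26.6, 34.8 and 29 counts in WT and 32.3, 36.8 and 33.5 in DKK1-SE-KO, a log2 fold change of 0.26 (SE 0.30). PCDHA11 had 14.7, 7 and 7.6 counts in WT and 13.3, 19 and 13.5 in DKK1-SE-KO. Scaled to CPM, PCDHA11 was higher in each knockout library, but its log2 fold change of 0.74 (SE 0.40) did not pass the test. In the beta cluster, PCDHB2 had 20.6, 26.3 and 31.5 counts in WT and 24.2, 22.9 and 11.2 in DKK1-SE-KO, a log2 fold change of -0.32 (SE 0.40). On the TPM scale its mean was higher in DKK1-SE-KO. PCDHB3 was at or below 5 counts in every library. The 5 tested members not yet named, PCDHA4, PCDHGB1, PCDHGB2, PCDHGA10 and PCDHGA11, had overlapping CPM and log2 fold changes from -0.70 (PCDHA4) to 0.47 (PCDHGB2). In TPM, PCDHA4 did not overlap, at 0.19, 0.18 and 0.59 in WT and 0.1, 0.17 and 0.17 in DKK1-SE-KO. By edgeR none of the 4 tested alpha members was called, and the number with an unadjusted p under 0.05 was 0. DESeq2 and limma on TPM called 0 of them as well.

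The gamma members below the filter differed between the groups in which of them were seen at all. The number of gamma members over 3 counts was 13, 14 and 14 in the WT libraries and 18, 18 and 18 in the DKK1-SE-KO libraries. The summed gamma counts, 1404, 1220 and 1276 in WT and 1289, 1220 and 1231 in DKK1-SE-KO, overlapped. Over the whole table, 18287, 17238 and 17709 genes exceeded 3 counts in WT and 17846, 18579 and 18491 in DKK1-SE-KO, which also overlapped. The alpha cluster had 6, 6 and 6 members over 3 counts in WT and 5, 6 and 5 in DKK1-SE-KO, and the beta cluster 6, 5 and 10 against 5, 4 and 5. In gamma, each knockout library thus had more members over 3 counts than each WT library, and in alpha and beta the groups shared values.

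Along with PCDHGB5, the gamma members PCDHGA2, PCDHGA3, PCDHGA7, PCDHGB4 and PCDHGB6 had no count in any WT library and over 3 counts in at least 1 knockout library. The alpha member PCDHA5 showed the same pattern, which makes 7 of the 50 members with any count, against 1.85% of all listed genes with any count. The opposite pattern, no count in any knockout library and over 3 in at least 1 WT library, was shown by 3 members, PCDHA7, PCDHB5 and PCDHB10, against 0.939% of all listed genes with any count. Members below the filter were singled out after their values were seen, except PCDHAC1, a C-type member, and PCDHB3, among the 3 beta members of highest mean TPM. The naming rule takes PCDHB14 too, but by its own values, since its counts lie on opposite sides of 3 between the groups. The 6 gamma members were not seen together. PCDHGB6 had 25.9 counts in DKK1-SE-KO replicate 1, 5.66 in replicate 2 and 0 in replicate 3. PCDHGB4 had 14.4 counts in DKK1-SE-KO replicate 2 and 0 in the other knockout libraries. PCDHGA3 had 6.07, 0 and 10 counts in the knockout libraries, PCDHGA2 10.7, 0 and 3.16, and PCDHGA7 0, 1 and 7.07. Apart from PCDHGB5, each of the 6 was thus at 0 in at least 1 knockout library, and the CPM of these 5 overlapped between the groups. PCDHGA9 came near the pattern, with 0, 0 and 4.24 counts in WT and 0, 16.7 and 22.7 in DKK1-SE-KO. The 6 members at 0 in WT lie between PCDHGA1 and PCDHGA10, a stretch in which PCDHGB1, PCDHGB2, PCDHGA5 and PCDHGA6 had counts in every library of both groups. PCDHGA5, in that stretch, was lower in each knockout library. Most of these counts are not whole numbers, and how far the pattern depends on the division of reads among members that share exons was not tested.

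**Figure D5:**
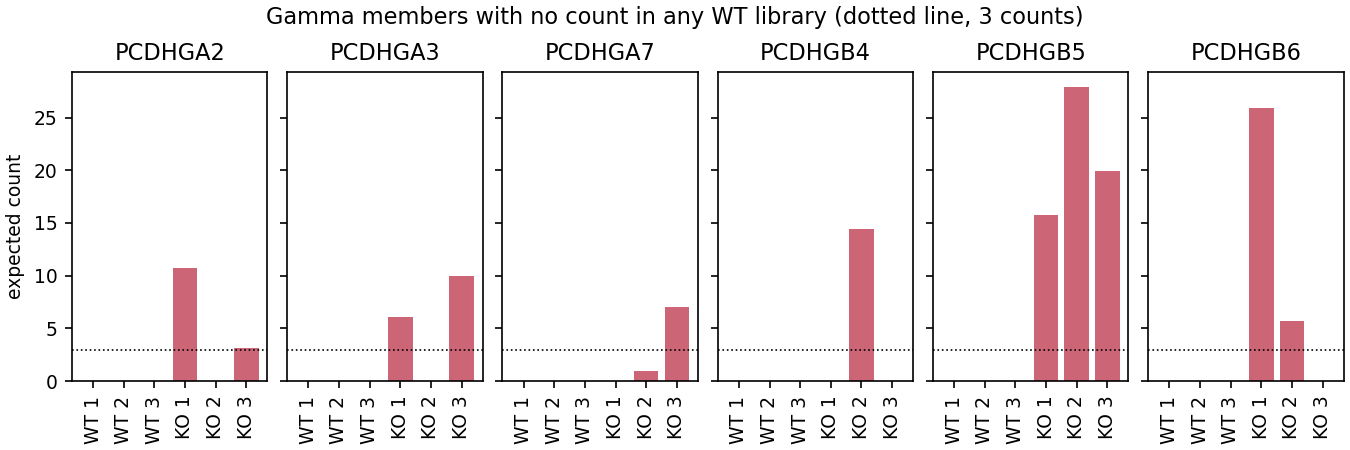
Expected counts, in each of the 6 libraries, of the 6 gamma members with no count in any WT library. PCDHGB5 has a bar in all 3 knockout libraries, at 15.8, 27.9 and 19.9, while the others lack a bar in at least 1.

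Without the filter on low counts, edgeR tested 50 members and called 8 higher, against 5.21% of all 31045 genes then tested, and 5 lower, against 2.81%. The 7 further members called higher were PCDHA5, PCDHGA2, PCDHGA3, PCDHGA7, PCDHGA9, PCDHGB4 and PCDHGB6, and the 2 further members called lower PCDHA10 and PCDHB10. These calls rest on counts at or near 0 in a group.

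Among beta members below the filter, PCDHB14 had 6, 5 and 6 counts in WT and 3, 0 and 1 in DKK1-SE-KO. Every WT library was over 3 counts and every knockout library at 3 or fewer, as for 0.349% of all listed genes with any count. The summed counts were 17 and 4, and their ratio, WT over DKK1-SE-KO, scaled by the library sizes with TMM factors, was 3.91 (95% interval of 1.28 to 16, for counting error only). Since PCDHB14 was picked by these same counts, the ratio and its interval are a description and not a test. PCDHB10 had 2, 1.68 and 7 counts in WT and 0 in each knockout library, and PCDHB16 5.85, 7 and 5 in WT and 0, 2 and 4 in DKK1-SE-KO. PCDHB6 lay the other way, at 2, 1 and 5 counts in WT and 5, 9 and 8.03 in DKK1-SE-KO. Its CPM values did not overlap, although its counts and TPM did. In the alpha cluster, PCDHA5 had no WT count and 5.7, 2.19 and 2.13 in the knockout libraries, while PCDHA10 had 4, 2 and 11.2 in WT and 0, 2.28 and 0 in DKK1-SE-KO. Among gamma members, PCDHGA5 had 14.3, 14.9 and 10.2 counts in WT and 4.87, 3.15 and 8.57 in DKK1-SE-KO, without overlap. The remaining members below the filter overlapped between the groups in CPM, although PCDHB9, at 0.01, 0.08 and 0.13 TPM in WT and 0.16, 0.15 and 0.17 in DKK1-SE-KO, did not in TPM. PCDHGA1, PCDHGA4, PCDHGA6, PCDHGA8 and PCDHGB3 reached at most 28.8 counts, and PCDHA6, PCDHA13, PCDHA14, PCDHB9 and PCDHB11 at most 8. At counts this close to the floor of 3, these differences were at the limit of what the libraries can show.

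The genes known to act on these clusters were examined next. Of the 11 genes of cohesin, its loading and release factors and CTCF, edgeR called 0, against 8.66% of all genes tested, while 9 had an unadjusted p under 0.05, against 48.3%. DESeq2 called 0, and limma on log2(TPM + 1) or log2(TPM + 0.1) called 1. By edgeR's adjusted p alone, 7 of the 11 passed, all lower in DKK1-SE-KO, against 19.5% of all genes tested that passed as lower and 39.3% in either direction, and the median log2 fold change was -0.67. RAD21, the cohesin subunit that closes the ring, was at 88.5, 90.7 and 86.3 TPM in WT and 36.9, 45.1 and 62.6 in DKK1-SE-KO. Lower in 3 of 3 knockout libraries, RAD21 had a log2 fold change of -0.77 (SE 0.13) and an adjusted p of 0.000932 from edgeR's quasi-likelihood test with Benjamini-Hochberg adjustment. With a GC-content offset the log2 fold change was -0.32. SMC1A, a core subunit, had a log2 fold change of -0.31 (SE 0.10). NIPBL, the cohesin loader, named after its values were seen, was at 11.9, 9.68 and 12.5 TPM in WT and 2.29, 4.99 and 6.63 in DKK1-SE-KO, with a log2 fold change of -1.18 (SE 0.21), just short of the limit. NIPBL was called without DKK1-SE-KO replicate 3 (-1.52), without WT replicate 3 (-1.24), with the replicate block (-1.24) and with limma on log2(TPM + 1) (-1.21) or log2(TPM + 0.1) (-1.39). It was at -0.97 without DKK1-SE-KO replicate 1 and at -0.86 with a GC-content offset. Whether these levels bear on the protocadherins was not tested.

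Of 16 genes of DNA methylation and silencing, edgeR called 0, against 8.66% of all genes tested, with 9 at an unadjusted p under 0.05, against 48.3%. By DESeq2 the number was 0 and by limma on either TPM scale 1. By edgeR's adjusted p, 4 passed as higher and 4 as lower, or 8 of the 16, against 39.3% of all genes tested. The higher genes were DNMT3B, EHMT1, EHMT2 and WIZ and the lower genes SMCHD1, TET2, TET3 and ATF7IP, all named after their values were seen. DNMT3B, a de novo DNA methyltransferase, was at 1.58, 2.43 and 2.78 TPM in WT and 3.45, 3.15 and 3.72 in DKK1-SE-KO, higher in 3 of 3 knockout libraries, with a log2 fold change of 0.86 (SE 0.20). SMCHD1, which takes part in silencing the protocadherin clusters, was at 31.4, 26.3 and 28.2 TPM in WT and 7.31, 9.95 and 17.4 in DKK1-SE-KO. Each knockout library lay below each WT library, with a log2 fold change of -1.08 (SE 0.22), short of the limit. SMCHD1 was called without DKK1-SE-KO replicate 3 (-1.42) and with limma on log2(TPM + 1) (-1.31) or log2(TPM + 0.1) (-1.39). It was at -0.85 without DKK1-SE-KO replicate 1 and at -0.73 with a GC-content offset. The abundant members of the list, DNMT1, the maintenance DNA methyltransferase, and TRIM28, a corepressor, had log2 fold changes of -0.12 and 0.12 with overlapping CPM, although the TPM of DNMT1 was lower in each knockout library.

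Of 23 genes for cytoplasmic partners and proteolysis of protocadherins, 3 (13%) were called by edgeR, all higher in DKK1-SE-KO, against 4.96% of all genes tested called higher and 8.66% in either direction, and the median log2 fold change was 0.24. MARCKS, an actin-linked substrate of protein kinase C, was at 5.39, 7.25 and 8.27 TPM in WT and 25.6, 22.6 and 27.4 in DKK1-SE-KO. CYFIP2, a subunit of the WAVE complex, which alpha protocadherins recruit, was at 0.38, 0.25 and 0.33 TPM in WT and 1.1, 2.24 and 1.27 in DKK1-SE-KO. FYN, a Src-family kinase, was at 2.53, 4.38 and 4.28 TPM in WT and 10.2, 6.48 and 9.64 in DKK1-SE-KO. The groups did not overlap in any of these 3 genes. In edgeR's fit MARCKS was 4.02-fold, CYFIP2 7.98-fold and FYN 3.43-fold higher, with standard errors of 0.15, 0.36 and 0.21 on the log2 scale. DESeq2 called the same number, limma on log2(TPM + 1) called 1, MARCKS, and limma on log2(TPM + 0.1) called 4. By edgeR 15 of the 23 had an unadjusted p under 0.05, against 48.3% of all genes tested. By edgeR's adjusted p alone, 7 of the 23 passed as higher and 3 as lower, or 10 in all, against 39.3% of all genes tested. The 3 lower genes, named after their values were seen, were NCKAP1 and ABI2, subunits of the WAVE complex, and ADAM10, a protease that sheds ectodomains, with log2 fold changes of -0.79, -0.37 and -0.76 and lower CPM in 3 of 3 knockout libraries. BRK1 and APH1A, the most abundant of the list, had log2 fold changes of 0.03 and 0.13.

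Outside the clusters, 4 of 12 nonclustered protocadherins were tested and edgeR called 0 of them, against 8.66% of all genes tested, with 2 at an unadjusted p under 0.05, against 48.3%. DESeq2 and limma on log2(TPM + 1) called 0, and limma on log2(TPM + 0.1) 1. PCDH7, the most abundant, was at 5.64, 6.12 and 6.44 TPM in WT and 6.4, 6.62 and 7.4 in DKK1-SE-KO, a log2 fold change of 0.28 (SE 0.12), and PCDH1, next to the gamma cluster, had -0.40 (SE 0.29). PCDH18, PCDH17 and PCDH10 were named after their values were seen. PCDH18 had 49, 47 and 45 counts in WT and 11, 25 and 37 in DKK1-SE-KO, below WT in 3 of 3 knockout libraries in CPM but not in TPM, and its log2 fold change of -0.85 (SE 0.37), the largest in size of the 4 tested, did not pass the limit, though it did without DKK1-SE-KO replicate 3 (-1.32). PCDH17 had 0 counts in every WT library and 11, 19 and 9 in the knockout libraries, at least 4.58-fold higher than a floor of 3 counts in each WT library. PCDH10 had 0, 0 and 3 counts in WT and 18, 13 and 3 in DKK1-SE-KO, which overlap in counts and in TPM but not in CPM. These 2 were below the filter with all 6 libraries, and edgeR without the filter called both higher. The span of the clusters with 1 Mb on each side held 50 other named genes. They include pseudogenes of these clusters, none of which was tested, and PCDH1, which is also among the nonclustered protocadherins. Of the 50, 31 were tested and 1 was called, higher in DKK1-SE-KO, or 3.23%. Over all genes tested, 8.66% were called in either direction and 4.96% were called higher. By edgeR's adjusted p alone, 9 passed as higher and 3 as lower, or 12 of the 31, against 39.3%. The called neighbour was CD14, a receptor of monocytes and also among the blood markers above, at 0.62, 0.28 and 0.51 TPM in WT and 1.07, 1.54 and 1.46 in DKK1-SE-KO, with a log2 fold change of 1.76 (SE 0.40), which was 0.68 and no longer called with limma on log2(TPM + 1). CYSTM1 and PFDN1, the most abundant neighbours, had log2 fold changes of 0.31 and 0.05 with overlapping CPM, although the TPM of PFDN1 was lower in each knockout library. The median over the 31 neighbours was 0.17.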

How the data were processed

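RNA-seq was analysed for 3 WT and 3 DKK1-SE-KO PANC-1 samples, grouped by their labels. The authors had stranded mRNA libraries sequenced and processed at Majorbio and deposited, for each gene and sample, expected counts without normalization. The authors also deposited TPM, which are normalized within each library. The deposited table further holds the authors' own comparison as a fold ratio, its log2, p-values and adjusted p-values, none of which was used. The submitters' processing notes name the build hg38. The aligner, counting program and annotation are not given in the sources used here.

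After rounding to whole numbers, the expected counts were tested with edgeR 4.0.16 (R 4.3.3), using TMM factors (0.939 to 1.04), filterByExpr with a minimum count of 10, the quasi-likelihood F test without covariates, and Benjamini-Hochberg adjustment over all genes. A called gene had p under 0.05 and a log2 fold change of 1.2 or more in size. The study's methods state 1.2 as an absolute fold change, and the limit was applied here on the log2 scale. The fit was tested on simulated data. A fold against a group at 0 was set against 3 counts in each library.

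The members and lists were chosen with earlier results of these data known. Genes named were members called, the 3 members of each cluster with the highest mean TPM, the C-type members, members on opposite sides of 3 counts in all libraries, the called and the 2 most abundant genes of each other list, and DKK1. Other settings tried were RLE factors, DESeq2 1.42.0, a total count of at least 1 as the only filter, replicate numbers as a block, a GC-content offset in 40 bins with and without that block, adjusted p alone, limma 3.58.1 (trended variance, log2(TPM + 1) or log2(TPM + 0.1), mean TPM of at least 0.1), and each sample left out. GENCODE version 44 placed 62625 of the 62703 identifiers and all 54 members.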

Additional observations from a re-analysis of the deposited data

How the results depend on the processing

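The tally of log2 fold changes covers the tested genes that the naming rule took, with NIPBL and SMCHD1, and no other named gene. For these genes the alternatives gave 420 values. Of them 359 kept their direction and remained called or not called, 14 lost the call, 12 gained it and 35 changed sign. Causes were not tested. Genes called over the genome numbered 2490 without a filter, 559 with limma on log2(TPM + 1), 5972 by adjusted p alone and 1187 with a GC-content offset. Members called higher were 8 without a filter and 0 with limma on log2(TPM + 1), and 1 to 3 with a library left out. Members called lower were 5 without a filter, 0 with limma on log2(TPM + 1), and 2 to 3 with a library left out. DESeq2, RLE factors, the block and the GC-content offset gave 1 higher and 3 lower.

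Of the cohesin and CTCF genes, 1 was called with limma on either TPM scale, 7 by adjusted p alone and 0 to 2 with a library left out. Of the silencing genes it was 1 with limma on either scale, 8 by adjusted p and 0 to 1 with a library left out. Of the partners it was 1 with limma on log2(TPM + 1), 4 with limma on log2(TPM + 0.1) and 10 by adjusted p. Of the nonclustered protocadherins it was 2 without a filter, 1 with limma on log2(TPM + 0.1) and 0 to 3 with a library left out. Of the neighbours it was 2 without a filter, 4 with limma on log2(TPM + 0.1), 12 by adjusted p and 1 to 4 with a library left out.

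The sums of TPM per cluster ranged, as log2 ratios with a library left out, from -0.33 to 0.089 in alpha, -0.33 to 2.18 in beta and -0.0021 to 0.19 in gamma. In CPM they were -0.061, -0.68 and 0.06. The planned choices, without the most abundant member of a cluster, gave 0.081 in alpha, 0.076 in beta and 0.22 in gamma. Leaving PCDHB2 and PCDHB3 out of beta, or the C-type members out of gamma, were choices made after seeing the data, and gave -0.88 and 0.03.

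Beside these sums, signs changed among the genes tallied above with fold changes close to 0 and, for PCDHB2, between counts and TPM. The log2 fold change of PCDHAC2 was -0.0052 with RLE factors, -0.0099 with DESeq2, -0.0078 without a filter, -0.15 and -0.23 with limma on log2(TPM + 1) and log2(TPM + 0.1), -0.072 with a GC-content offset and -0.25 to 0.26 with a library left out. That of PCDHB2 was 0.54 and 0.89 with limma on these scales. PCDHGC3 was at -0.21 with a GC-content offset and at -0.10 to 0.11 with a library left out. TRIM28 was at -0.017 with limma on either scale, -0.24 with the offset and, at the lowest, -0.024 with a library left out. APH1A was at -0.13 with the offset. BRK1 was at -0.14 with limma on either scale and, at the lowest, -0.15 with a library left out. PFDN1 was at -0.21 and -0.22 with limma, -0.054 with the offset and, at the lowest, -0.069 with a library left out.

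The replicate numbers did not pair the samples: deviations from the group means correlated at -0.12 to -0.07 between samples of the same number and at -0.05 to 0.15 between others. The fit that took the replicate number as a block called 1370 genes, among them 1 member higher, 3 members lower and 1 cohesin gene (NIPBL), and placed PCDHAC2 at -0.0041. With the block and a GC-content offset together, log2 fold changes were -0.088 for PCDHAC2, -0.22 for PCDHGC3, -0.24 for TRIM28, -0.13 for APH1A and -0.06 for PFDN1.

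Depth limits the low members: 3 counts were 0.132 to 0.184 CPM, and 28 of the 38 members not tested exceeded 3 counts in some library. Shared exons leave the levels of single alpha and gamma members uncertain.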

Other observations

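Of the rows of these clusters that the naming rule leaves out, PCDHB1-AS1, annotated antisense to PCDHB1, had 9.36, 2.27 and 2.44 expected counts in WT and 21.3, 6.67 and 11.8 in DKK1-SE-KO, with overlapping groups, while PCDHB1 itself had none. PCDHB17P, PCDHB18P, PCDHB19P, PCDHGB8P and PCDHGB9P had at most 3 counts in any library.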
